A study of Mus musculus with 6 samples.

Results

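The T cell identity transcription factors described here are 10 DNA-binding proteins of the T lineage: Gata3, Tox, Tcf7, Lef1, Bcl11b, Satb1, Myb, Runx1, Ikzf1 and Ets1. They were chosen by gene name, and all 10 were found among the 17832 genes of the deposited table of normalised read counts. The 6 libraries came from spleens of C57BL/6 mice that received angiotensin II through pumps placed under the skin. CD8+ cells gave 3 libraries (CD8 389, CD8 395 and CD8 387) and CD4+ cells gave 3 libraries (CD4 385, CD4 393 and CD4 395), all after a flow cytometric sort. Every mouse had the hormone, so the comparison made is CD8 against CD4 cells and no value bears on the treatment itself. The number 395 occurs in both groups and may mark a mouse that gave both populations, although the labels do not say so. Since nothing states that the libraries of a group came from separate animals, p-values measure only the spread between these libraries, which may be technical.

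These factors set up and maintain the T cell program. In the thymus, Notch signals induce Tcf7 and Gata3, and Bcl11b then completes commitment to the T lineage. Tcf7 and its relative Lef1 bind the DNA of many T cell genes through an HMG box and stay active in naive and memory T cells. Runx1, Ets1, Ikzf1 and Myb act more widely in blood formation: Runx1 in stem cells and megakaryocytes, Ets1 and Ikzf1 also in B cells, and Myb in dividing progenitors and erythroid precursors.

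Promoter sequences are shown for 4 of the factors, because these stand for the patterns of level described below: Bcl11b and Gata3 varied widely between libraries and were lower relative to the T cell receptor genes in the CD8 libraries, Runx1 was separated between the groups with little spread, and Ikzf1 was nearly level. RefSeq start sites were available for 8 of the 10 factors, with 18 windows of 300 bases that run from 250 bases before to 50 bases after the start (build GRCm38.p6, whereas the submitters' processing notes name GRCm39). Capitals mark matches, on either strand, to short motifs of the factors' own families. The TCF/LEF motif was searched as CTTTGAA and, in its other form, as CTTTGAT. The RUNX motif was searched as TGTGGT and as the variant TGCGGT. For GATA factors the letters were AGATAA and the related TGATAA, and for ETS factors CCGGAAG and the related CAGGAAG. For MYB the letters were AACTGCC and the shorter AACGGC, and for IKZF factors TTGGGAA and the variant CTGGGAA. The first listed start of each gene is shown, 5′ to 3′ in the direction of transcription.
Bcl11b (chr12:108003365-108003664, minus strand): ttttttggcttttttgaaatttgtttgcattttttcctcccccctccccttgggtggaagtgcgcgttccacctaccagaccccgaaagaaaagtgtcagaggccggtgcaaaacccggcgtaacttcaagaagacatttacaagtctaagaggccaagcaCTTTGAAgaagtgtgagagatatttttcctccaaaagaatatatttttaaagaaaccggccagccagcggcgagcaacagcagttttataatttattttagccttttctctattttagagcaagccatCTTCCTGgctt
Gata3 (chr2:9878551-9878850, minus strand): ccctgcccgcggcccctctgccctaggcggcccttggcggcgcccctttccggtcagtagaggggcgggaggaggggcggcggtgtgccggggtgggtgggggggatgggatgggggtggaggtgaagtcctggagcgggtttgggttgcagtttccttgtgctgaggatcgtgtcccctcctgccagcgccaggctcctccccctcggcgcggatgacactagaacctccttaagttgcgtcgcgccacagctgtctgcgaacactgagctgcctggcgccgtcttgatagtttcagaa
Runx1 (chr16:92826025-92826324, minus strand): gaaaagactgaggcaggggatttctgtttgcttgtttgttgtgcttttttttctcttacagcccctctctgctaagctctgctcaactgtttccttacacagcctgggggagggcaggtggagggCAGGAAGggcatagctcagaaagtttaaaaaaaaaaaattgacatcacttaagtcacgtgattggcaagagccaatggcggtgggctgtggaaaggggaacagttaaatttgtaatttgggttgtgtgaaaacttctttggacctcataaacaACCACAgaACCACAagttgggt
Ikzf1 (chr11:11685675-11685974, plus strand): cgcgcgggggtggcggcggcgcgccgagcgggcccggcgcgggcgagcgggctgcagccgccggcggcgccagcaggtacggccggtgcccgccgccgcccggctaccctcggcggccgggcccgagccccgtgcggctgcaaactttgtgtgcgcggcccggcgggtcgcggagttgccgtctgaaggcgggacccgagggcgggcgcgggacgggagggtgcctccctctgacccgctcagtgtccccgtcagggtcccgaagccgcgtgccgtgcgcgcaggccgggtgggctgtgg

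The Bcl11b window held 1 TCF/LEF match and 1 ETS match, and these motifs occurred in 8.65% and 20.9% of all 32851 windows. The Runx1 window held 2 RUNX matches, found at least once in 22.4% of all windows, and 1 ETS match. No match to the 6 motifs lay in the windows shown for Gata3 and Ikzf1. The Ikzf1 window contained 52 CpG dinucleotides and Gata3 22, against 9 in Bcl11b and 2 in Runx1, and the median over all windows was 7. The second listed starts of Runx1 and Ikzf1, not shown, went the other way. That of Runx1 had 35 CpG and no match to the 6 motifs, and that of Ikzf1 had 2 CpG and 2 ETS matches. A match describes these letters only, and the read counts do not separate transcripts by start site.

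Every library held transcripts of other blood cells beside those of T cells. Total reads ranged from 10264246 to 14628599 per library. Each library carried the coreceptor transcripts of its label: Cd8a was at 3871 to 10001 in the CD8 libraries and at 7.45 to 36.8 in the CD4 libraries, and Cd4 was at 38.9 to 163 in the CD8 libraries and at 4065 to 6313 in the CD4 libraries. A list of 18 T cell receptor and proximal signalling genes, all detected, summed to 24561 to 68928 in CD8 and to 46261 to 89769 in CD4 libraries, with the lowest sum in CD8 389. All 13 erythroid markers were detected and summed to 63530 to 118178 in CD8 and to 38784 to 85453 in CD4, and all 10 proliferation markers to 26701 to 58838 in CD8 and to 18675 to 32010 in CD4. Both sums were highest in CD8 389, where the T cell receptor sum was lowest, and lowest in CD4 393, where it was highest. All 9 B cell markers were detected and summed to 63100 to 120337 in CD8 and to 80428 to 106355 in CD4, most of it from Ighm. The 11 dendritic cell markers, also all detected, summed to 28060 to 42426 in CD8 and to 4480 to 13730 in CD4. By group mean, most of that sum came from Cd74, H2-Aa, H2-Ab1 and H2-Eb1. Of the 11 dendritic cell markers 1 was called higher in CD8 by limma and 7 by DESeq2. Over all 13877 genes tested, limma called 39 higher in CD8 and DESeq2 161. The limma call among these markers was Xcr1, at 487 ± 28.4 in CD8 and 12.7 ± 4.66 in CD4 (SD, n = 3 each, adjusted p = 0.0042). The 8 neutrophil markers summed to 1399 to 6306 in CD8 and to 428 to 11081 in CD4, the 6 mast cell and basophil markers to 196 to 964 in CD8 and to 75.5 to 1381 in CD4, and the 10 macrophage markers to 6690 to 20327 in CD8 and to 4571 to 25377 in CD4, each highest in CD4 385 and lowest in CD4 395. The ribosomal RNA gene Rn18s was at 345959 in CD8 395 and at 9336 to 49035 in the other 5 libraries. With the macrophage sum as a covariate limma called 0 of the 10 factors and 159 of 13877 genes, beside 0 of the 10 and 68 genes without it. The part of macrophages, of the other cells and of Rn18s in the results was not tested. Fewer T cells and less RNA per T cell cannot be told apart in such bulk libraries.

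None of the 10 factors was called as different between the CD8 and the CD4 libraries. The test was limma on log2(value + 1), with a gene called at a Benjamini-Hochberg adjusted p under 0.05, and it called 68 of 13877 genes, or 0.49%. EdgeR also called 0 of the 10, whereas DESeq2, which called 1.14% of all genes lower in CD8, and limma with library weights, which called 0.973% of all genes lower in CD8, each called Runx1. At an unadjusted p under 0.05, limma had 5 of the 10 lower in CD8, namely Runx1, Gata3, Tox, Ets1 and Bcl11b, where 3.36% of all genes tested were lower at that level. That count of 5 was 1 without CD4 393 (1.36% of all genes lower at that level), 2 without CD4 395 (2.45%) and 2 without CD8 389 (2.4%). It was 2 in limma without a trend (3.58% of all genes) and 0 with values rescaled to the T cell receptor genes (1%). All 10 point estimates were below 0, as were those of 44.4% of all genes. Their median log2 fold change was -0.65 (CD8 minus CD4) beside 0.04 over all genes. After values were rescaled to the T cell receptor genes, the estimates of Lef1, Myb, Runx1 and Ikzf1 were above 0. That fit called 0 of the 10 and 0.742% of all genes. It also moved the median over all genes up to 0.57, and these estimates lay under that median. The estimate of Lef1 was also above 0 without CD8 389 and with the proliferation or T cell receptor sum as covariate. The T cell receptor list itself had 18 of 18 point estimates below 0 and a median of -0.67. Its estimates ran from -1.40 for Cd5 and -1.36 for Cd28 to -0.01 for Thy1. Of the 18, 2 were lower in CD8 at an unadjusted limma p under 0.05 (3.36% of all genes), and DESeq2 called 1 lower (1.14%). Groups did not overlap and were lower in CD8 for 2 of the 18, where 5.28% of all genes did so. The list therefore differed in part between the groups itself.

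**Figure D1:**
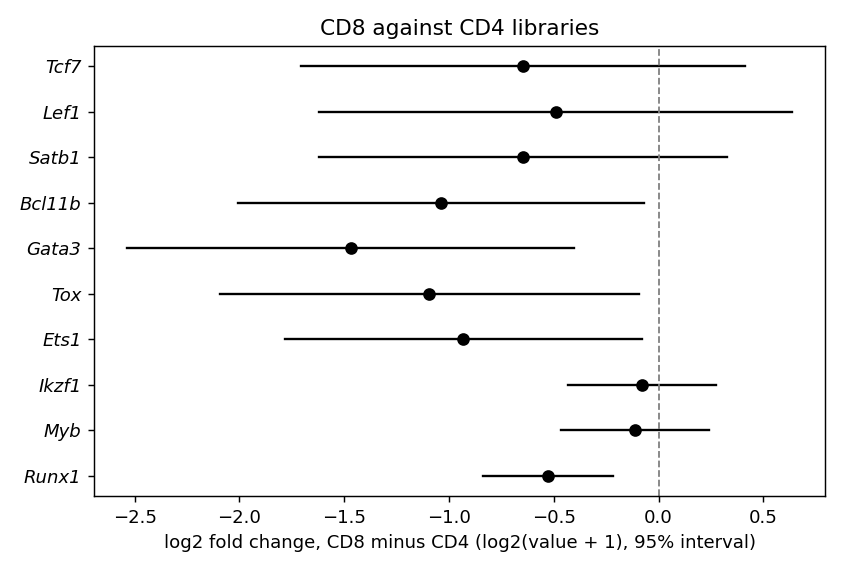
Log2 fold change of each factor, CD8 minus CD4, from limma on log2(value + 1), with bars for the 95% interval of the moderated fit over 3 libraries against 3. All 10 points lie below 0, and the intervals of Bcl11b, Gata3, Tox, Ets1 and Runx1 do not reach 0 before adjustment for the number of genes tested.

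The factors had contrasting patterns across libraries, grouped here after their values were seen. Tcf7, Lef1, Satb1, Bcl11b, Gata3, Tox and Ets1 ranged 3.81-fold to 7.01-fold between the lowest and the highest library, beside a 3.65-fold range of the T cell receptor sum. In each of these 7 genes CD8 389 was the lowest library, CD4 393 the highest, and CD4 385 the lowest of its group. Ikzf1, Myb and Runx1 ranged only 1.16-fold, 1.25-fold and 1.52-fold, where the median gene tested ranged 1.85-fold. Of all genes tested, 1.69% had a smaller range than Ikzf1 and 7.26% a smaller range than Myb, whereas 93.3% had a smaller range than Gata3.

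**Figure D2:**
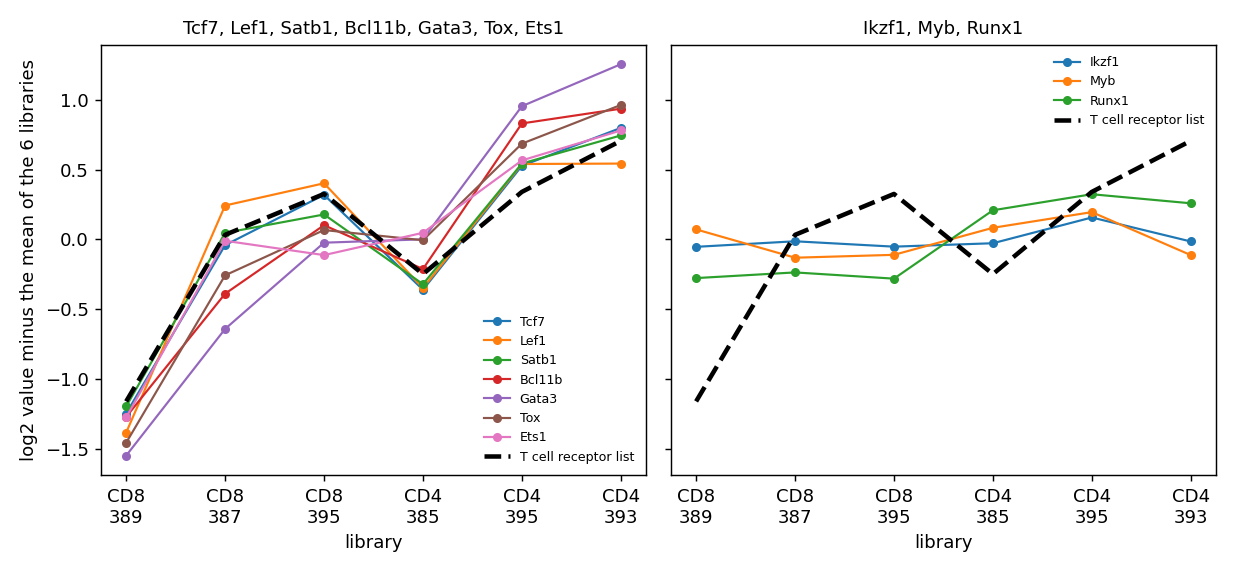
Log2 value of each factor minus its mean over the 6 libraries, with the log2 sum of the T cell receptor list as a dashed line; lines join libraries only to guide the eye, and within each group libraries are placed by that sum. The 7 factors on the left are lowest in CD8 389 and highest in CD4 393, as is the sum, and the 3 on the right stay within a narrow band, with Runx1 lower in all 3 CD8 libraries.

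Tcf7 encodes TCF-1, an HMG box factor that opens chromatin at T cell genes. It had 3446, 10222 and 7960.4 normalised reads in CD8 389, CD8 395 and CD8 387, against 6378, 14263 and 11811 in CD4 385, CD4 393 and CD4 395. The groups overlapped, and within each group the library with the lowest T cell receptor sum was also the lowest for Tcf7. In the limma fit Tcf7 had a log2 fold change of -0.65 (SE 0.45, adjusted p = 0.946), with a 95% interval of -1.70 to 0.41. The estimate was -0.18 without CD8 389, -0.41 without CD4 393 and -0.99 without CD4 385.

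Lef1, the closest relative of Tcf7 among the 10, overlaps with it in function during T cell development. It had 689, 2381 and 2132 reads in CD8 389, CD8 395 and CD8 387, against 1414, 2627 and 2621 in CD4 385, CD4 393 and CD4 395. Apart from CD8 389, the CD8 values lay inside the CD4 range. Its log2 fold change was -0.49 (SE 0.48, limma adjusted p = 0.946) and turned to 0.078 without CD8 389, and was -0.79 without CD4 385 and -0.82 without CD8 395.

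Satb1 organises chromatin loops in thymocytes and T cells. Its values were 1349, 3505 and 3199 in CD8 389, CD8 395 and CD8 387, and 2478, 5193 and 4516 in CD4 385, CD4 393 and CD4 395. The limma estimate for Satb1 was -0.65 (SE 0.42, adjusted p = 0.946), and was -0.21 without CD8 389. It kept a nearly constant ratio to Tcf7: 392, 343 and 402 Satb1 reads per 1000 Tcf7 reads in CD8 389, CD8 395 and CD8 387, and 389, 364 and 382 in CD4 385, CD4 393 and CD4 395. Of the 45 pairs of factors this ratio varied least, 1.17-fold over the 6 libraries, and the means were 379 ± 31.5 in CD8 and 378 ± 12.7 in CD4 (SD, n = 3 each).

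Bcl11b, a zinc finger repressor that closes off other lineages, had 592, 1536 and 1092 reads in CD8 389, CD8 395 and CD8 387, against 1235, 2742 and 2548 in CD4 385, CD4 393 and CD4 395. The groups overlapped through CD8 395 and CD4 385. Bcl11b had a log2 fold change of -1.04 (SE 0.41), with a limma p of 0.0385 before and 0.769 after adjustment. Without CD8 389 it was -0.66, with an unadjusted limma p of 0.109.

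Gata3 is a zinc finger factor needed for T cell commitment, for the CD4 lineage and for type 2 helper and many regulatory T cells. It had the lowest counts of the 10, with 65.7, 189 and 123 reads in CD8 389, CD8 395 and CD8 387, against 193, 460.2 and 373 in CD4 385, CD4 393 and CD4 395. The groups did not overlap, but CD8 395 and CD4 385 were close to each other. Its log2 fold change of -1.47 (SE 0.46) was the largest in size among the factors and was not called by limma (unadjusted p = 0.0135, adjusted p = 0.451). Over 20 alternatives the adjusted p of Gata3 (limma, edgeR or DESeq2) ranged from 0.0582 to 0.9999. Foxp3, the defining factor of regulatory T cells and named after its values were seen, had 12.95, 61.6 and 35.2 reads in CD8 389, CD8 395 and CD8 387, against 585, 986 and 835 in CD4 385, CD4 393 and CD4 395, and the part of regulatory T cells in the values of Gata3 and Runx1 was not tested.

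Tox, an HMG box factor required for CD4 T cell development and raised in chronically stimulated CD8 T cells, had 91.6, 264 and 211 reads in CD8 389, CD8 395 and CD8 387, against 251, 491 and 405 in CD4 385, CD4 393 and CD4 395. Only CD8 395 reached into the CD4 range. Its fold change on the log2 scale was -1.09 (SE 0.43, limma adjusted p = 0.749), and -0.64 without CD8 389.

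Ets1, the founding member of the ETS family and a regulator of T cell survival and of B cell differentiation, had 2997, 6718 and 7214 reads in CD8 389, CD8 395 and CD8 387, against 7507, 12487 and 10759.8 in CD4 385, CD4 393 and CD4 395. Its groups did not overlap, though CD8 387 and CD4 385 differed little. For Ets1 limma gave a log2 fold change of -0.93 (SE 0.37, adjusted p = 0.749), which was -0.53 without CD8 389.

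Runx1 had the lowest unadjusted limma p of the 10. With values rescaled to the T cell receptor genes its estimate was 0.0049 on the log2 scale, under the median of 0.57 over all genes in that fit. This partner of Cbfb silences Cd4 in immature thymocytes and acts with Foxp3 in regulatory T cells. It had 579, 578 and 596 reads in CD8 389, CD8 395 and CD8 387, against 812, 840.2 and 879 in CD4 385, CD4 393 and CD4 395. The spread within a group was small, with means of 584 ± 10.1 in CD8 and 844 ± 33.8 in CD4 (SD, n = 3 each), and the CD8 libraries were lower in 3 of 3 cases than every CD4 library. The log2 fold change was -0.53 (SE 0.13), with a limma p of 0.0046 before and 0.241 after adjustment over all genes. DESeq2 on the recovered reads called it (adjusted p = 0.0114), as did limma with library weights (adjusted p = 0.033), and edgeR did not (adjusted p = 0.188). Over the fits that left out 1 library, the estimate stayed between -0.56 and -0.50 and was not called. The 6 platelet and megakaryocyte markers, all detected, summed to 464, 463 and 480.0 in CD8 389, CD8 395 and CD8 387, against 1056, 1257 and 1397 in CD4 385, CD4 393 and CD4 395. Most of that difference lay in Itgb3, an integrin chain that other cells also carry, at 186 ± 85.1 in CD8 and 992 ± 254 in CD4 (SD, n = 3 each), and the groups overlapped for the other 5 markers.

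Ikzf1 encodes Ikaros, a zinc finger factor of all lymphoid cells that works with the NuRD chromatin complex. It had 7407, 7413 and 7614 reads in CD8 389, CD8 395 and CD8 387, against 7540.0, 7607 and 8571 in CD4 385, CD4 393 and CD4 395. Only CD4 395 stood somewhat higher. Limma gave a log2 fold change of -0.08, with a 95% interval of -0.43 to 0.28 (adjusted p = 0.957).

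Myb, the cellular form of the oncogene and a factor of progenitor and erythroid growth, had 3776, 3327 and 3280.0 reads in CD8 389, CD8 395 and CD8 387, against 3806, 3323 and 4115 in CD4 385, CD4 393 and CD4 395. CD8 389 was the highest CD8 library for Myb, unlike for the other 9 factors. It also had the highest erythroid and proliferation sums of the 6 libraries, at 118178 and 58838. Over all 6 libraries, however, Myb was highest in CD4 395, where these sums were only 60191 and 26845. The estimate for Myb was -0.11 on the log2 scale, with a 95% interval of -0.47 to 0.24 (limma adjusted p = 0.948). With the proliferation sum as a covariate the limma estimates were -0.21 for Myb, -0.08 for Ikzf1 and -0.52 for Runx1. The same covariate moved Tcf7 from -0.65 to -0.03, Satb1 from -0.65 to -0.08 and Lef1 from -0.49 to 0.17. Gata3 moved from -1.47 to -0.89, Tox from -1.09 to -0.52 and Bcl11b from -1.04 to -0.51. That fit called 0 of the 10 factors and 114 of 13877 genes. The part of dividing cells and of erythroid cells was not tested.

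Gata3, Ets1 and Runx1, 3 of the 10, had groups that did not overlap and were lower in CD8, where 5.28% of all genes tested did so, and 0 of the 10 were higher without overlap, where 4.93% of all genes were. The 7 factors that ranged widely were all lowest in the library with the lowest T cell receptor sum and highest in that with the highest, so they cannot be counted as independent. Their order in between did not always follow the sum: Ets1 was lower in CD8 395 than in CD8 387 and CD4 385, although the sum was higher in CD8 395, and Gata3 was not higher in CD8 395 than in CD4 385.

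**Figure D3:**
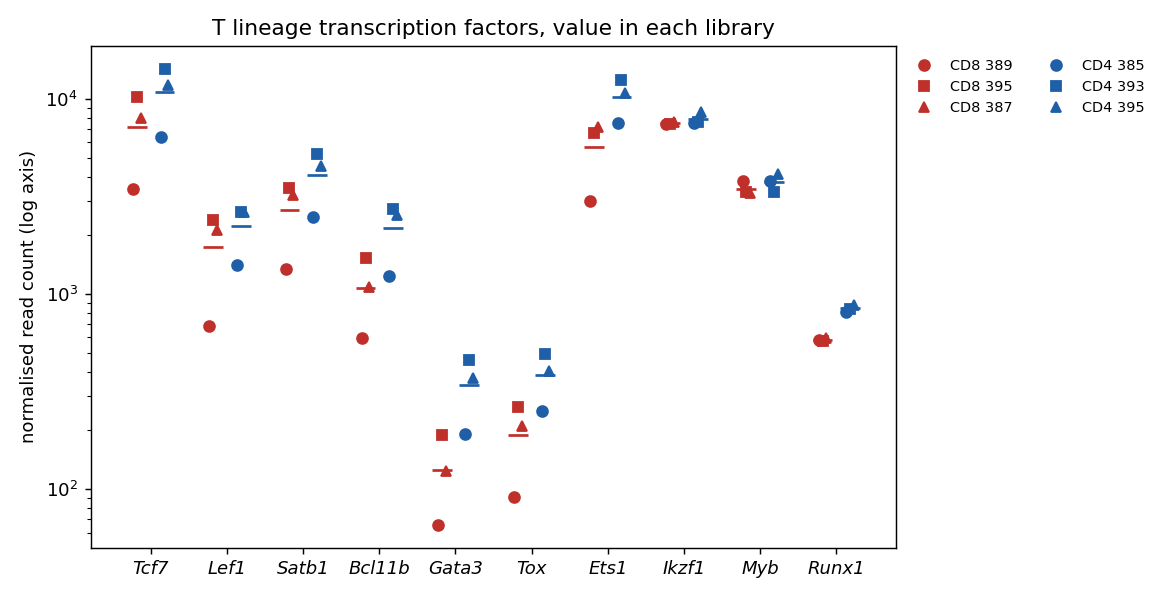
Normalised read count of each factor in each library on a log axis, with CD8 libraries in red left of CD4 libraries in blue and a bar at the mean of 3 libraries. Runx1 lies at 578 to 596 in CD8 and at 812 to 879 in CD4, while Tcf7 spans 3446 to 14263 over both groups.

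Levels between genes were compared per kilobase of annotated exon (GENCODE vM21, all exons of a gene merged), a scale that depends on which isoforms are present. Tcf7 was highest, at 2746 ± 1314 normalised reads per kilobase in CD8 and 4121 ± 1537 in CD4 (SD, n = 3 each). Ikzf1 followed at 1294 ± 20.4 in CD8 and 1369 ± 99.9 in CD4, then Ets1 at 666 ± 272 in CD8 and 1209 ± 298 in CD4, and Myb at 387 ± 30.6 in CD8 and 419.6 ± 44.7 in CD4. In CD8 389 the order of this pair was the other way round, with Ets1 at 354 and Myb at 423 per kilobase. In CD4 the order of Ikzf1 and Ets1 changed between libraries, with Ets1 higher in CD4 393 only. Lef1, Satb1 and Bcl11b had per-kilobase levels of 197 ± 104, 141 ± 61.3 and 132 ± 58.2 in CD8 and 253 ± 79.5, 214 ± 74.3 and 268 ± 101 in CD4. Their spreads overlapped in both groups, but Lef1 was above Satb1 in every library. Lef1 was above Bcl11b in each CD8 library and in CD4 385, and Bcl11b was above Satb1 in every library but CD8 387. Runx1 stood at 48.6 ± 0.84 in CD8 and 70.1 ± 2.81 in CD4, and Gata3 at 31.7 ± 15.6 in CD8 and 86.0 ± 34.3 in CD4. Tox was lowest, at 24.8 ± 11.6 in CD8 and 50.3 ± 16.0 in CD4. Gata3 and Runx1 were above Tox in every library, although the spreads of Gata3 and Tox overlapped in both groups. The order of Runx1 and Gata3 in CD4 changed between libraries.

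Set against the T cell receptor genes of the same library, Tox, Gata3, Bcl11b and Ets1 separated by group. Per 1000 reads of the T cell receptor list, Tox had 3.73, 3.83 and 3.75 reads in CD8 389, CD8 395 and CD8 387, against 5.42, 5.47 and 5.82 in CD4 385, CD4 393 and CD4 395. The 5.36-fold range of Tox over the libraries shrank to 1.56-fold on this scale, and the groups did not overlap. Gata3 had 2.67, 2.75 and 2.19 per 1000 in CD8 389, CD8 395 and CD8 387, against 4.16, 5.13 and 5.36 in CD4 385, CD4 393 and CD4 395, so that its CD8 mean was 52.0% of its CD4 mean. Bcl11b averaged 21.9 ± 2.36 in CD8 and 31.3 ± 4.99 in CD4, and Ets1 116 ± 16.3 in CD8 and 152 ± 11.8 in CD4 (SD, n = 3 each).

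These 4 factors had non-overlapping groups, all lower in CD8, where 2.06% of all genes tested were so on this scale, and 0 of the 10 were higher without overlap, where 6.9% of all genes were. Tcf7, Lef1 and Satb1 overlapped, with CD8 means of 143 ± 4.31, 33.5 ± 5.01 and 54.2 ± 3.08 and CD4 means of 155 ± 16.1, 32.5 ± 4.51 and 58.8 ± 5.70. Ptprc, which encodes CD45 and is carried by other leukocytes too, was the most abundant gene of the list. Without it only Gata3 and Tox, 2 of the 10, had non-overlapping groups, where 1.57% of all genes did so and were lower in CD8. With the CD3 chain genes Cd3e, Cd3d and Cd3g as the denominator Tcf7 joined the 4, which made 5 of the 10, where 2.33% of all genes did so.

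**Figure D4:**
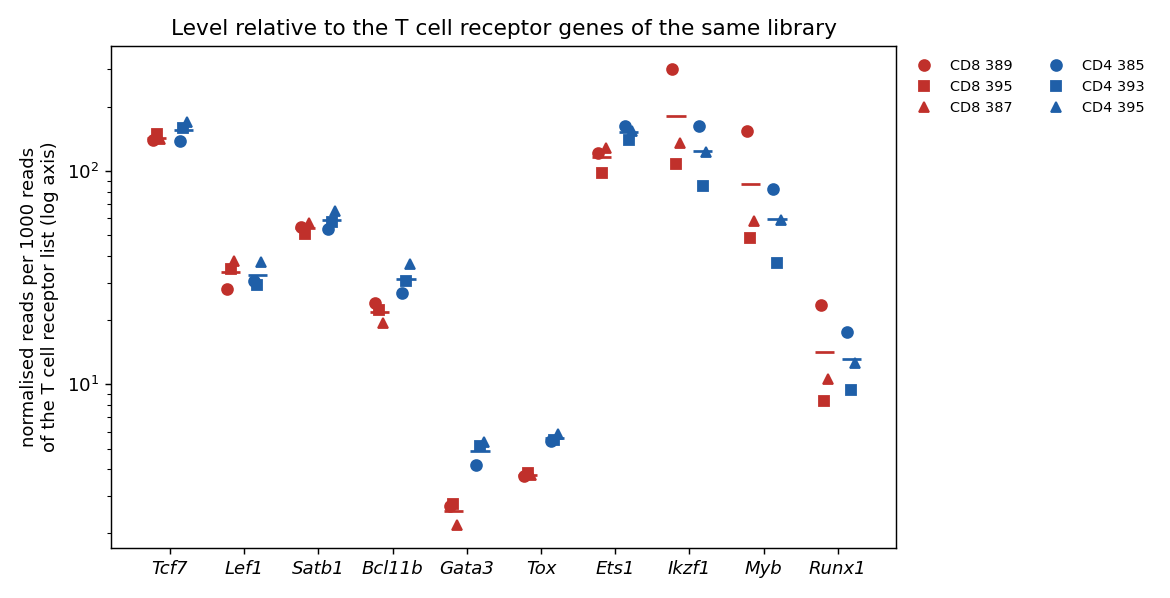
Normalised reads of each factor per 1000 normalised reads of the 18-gene T cell receptor list in the same library, on a log axis, with CD8 libraries in red left of CD4 libraries in blue and a bar at the mean of 3 libraries. Tox lies at 3.73 to 3.83 in CD8 and at 5.42 to 5.82 in CD4, whereas Ikzf1 and Myb, nearly level before, spread on this scale.

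In a limma fit with the log2 T cell receptor sum as a covariate, chosen after the data were seen, 0 of the 10 factors were called and 120 genes were called in all (0.865%). The estimate for Gata3 was -0.91 (SE 0.21, adjusted p = 0.17), for Tox -0.55 (SE 0.16, adjusted p = 0.298), for Bcl11b -0.52 (SE 0.17, adjusted p = 0.42), for Ets1 -0.48 (SE 0.15, adjusted p = 0.341) and for Runx1 -0.52 (SE 0.12, adjusted p = 0.164), all by limma. These 5 were again the ones with an unadjusted p under 0.05, where 3.1% of all genes were lower in CD8 at that level. Tcf7, Satb1 and Lef1 had estimates of -0.06, -0.11 and 0.14 in that fit.

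Ratios between the factors within a library need no scale between libraries. Of 45 pairs, 15 had ratios whose groups did not overlap, where 10.8% of all pairs of genes with a mean of 50 or more did so, and pairs that share a factor or follow the same cells are not independent. Gata3 was the lower partner in CD8 in 5 pairs, against Tox, Tcf7, Lef1, Bcl11b and Satb1. Per 1000 Tcf7 reads there were 19.1, 18.5 and 15.5 Gata3 reads in CD8 389, CD8 395 and CD8 387, against 30.2, 32.3 and 31.6 in CD4 385, CD4 393 and CD4 395. Tox had 26.6, 25.8 and 26.5 reads per 1000 Tcf7 reads in CD8 389, CD8 395 and CD8 387, against 39.3, 34.5 and 34.3 in CD4 385, CD4 393 and CD4 395. Bcl11b had 172, 150.3 and 137 in the same CD8 libraries, against 194, 192 and 216 in the CD4 libraries. For these 3 factors the groups did not overlap, as for 1.55% of all genes set against Tcf7 and lower in CD8, and no factor was higher without overlap, as 6.63% of all genes were. Runx1 was lower relative to Ikzf1 and to Myb in the CD8 libraries, with no overlap in either pair.

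The genes whose profile over the 6 libraries was nearest to a factor were found by the root mean square difference of centred log2(value + 1), among 11048 other genes with a mean of 50 or more. The nearest to Tcf7 were Cd27, a costimulatory receptor, and Dgka, a lipid kinase that dampens T cell receptor signals (0.06 each), followed by Satb1 itself (0.08). Gimap8, Gimap4 and Arhgef4 (0.06 each) were nearest to Satb1. Lef1 was nearest to Fhl3, Lck, the kinase that starts T cell receptor signalling, and the receptor segment Trbv13-1 (0.12 each). Cd5, a T cell surface receptor, Itm2a and Gm42372 (0.12, 0.13 and 0.14) were nearest to Gata3. Cd6, Carmil2 and Sfmbt2 (0.07, 0.09 and 0.09) were nearest to Tox, and Cand2, Cd6 and Pkp3 (0.07, 0.12 and 0.13) to Bcl11b. Axin2, a Wnt pathway gene, Cpm and Tecpr1 (0.06, 0.06 and 0.07) were nearest to Ets1. Sc5d, Foxred2 and H2-T24 (0.08, 0.09 and 0.09) were nearest to Runx1, Maz, Sart3 and Khk (0.04, 0.04 and 0.05) to Myb, and Polr3e, Rbx1 and Uqcrh (0.03 each) to Ikzf1.

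Relatives of the factors from the same protein families held 1 called gene. Of 23 listed, 22 were in the table and tested, 0 were called higher and 1 was called lower in CD8, and the median log2 fold change was -0.06. The called gene was Tox2, an HMG box factor of follicular helper T cells, with 3.70, 5.81 and 5.87 reads in CD8 389, CD8 395 and CD8 387, against 53.9, 139 and 55.3 in CD4 385, CD4 393 and CD4 395. Its limma estimate was -3.65 (SE 0.48, adjusted p = 0.0272), with the CD8 values little above the value of 3 reads. Tox2 passed the filter on low values only through the CD4 libraries, where it was high, because every CD8 value lay under the filter value. Tox2 was not called when any 1 CD8 library was left out or with a filter at 50, and was not tested when any 1 CD4 library was left out. Ikzf2 and Ikzf4, which encode Helios and Eos of regulatory T cells, also had groups that did not overlap, and DESeq2 called both lower in CD8 (adjusted p = 6.6e-06 for Ikzf2 and 9.8e-05 for Ikzf4). Over 20 alternatives Ikzf2 was called in 7 and Ikzf4 in 3. Ikzf2 had 156, 199 and 310 reads in CD8 389, CD8 395 and CD8 387, against 650, 1139 and 726 in CD4 385, CD4 393 and CD4 395 (-1.93 on the log2 scale, limma adjusted p = 0.0536). Ikzf4 averaged 34.6 ± 15.7 in CD8 and 181 ± 82.8 in CD4 (SD, n = 3 each). Limma gave it an estimate of -2.36 (adjusted p = 0.107). Runx3, the paralogue of Runx1 that represses Cd4 in CD8 T cells, averaged 1055 ± 289 in CD8 and 828 ± 58.1 in CD4 and was not called. Elf1 and Elf4, the most abundant relatives by mean over the 6 libraries, had log2 fold changes of -0.18 and -0.24.

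Among partners and cofactors no gene was called. Of 22 listed and tested, 0 were called in either direction by limma and by DESeq2, 0 had an unadjusted p under 0.05, and the median log2 fold change was 0.04. Cbfb, the subunit shared by the Runx proteins, averaged 866 ± 189 in CD8 and 982 ± 55.2 in CD4 (SD, n = 3 each). Chd4, the helicase of the NuRD complex, averaged 7162 ± 1043 in CD8 and 7559 ± 650.3 in CD4, and Ldb1, an adaptor of GATA factors, 5708 ± 384 in CD8 and 6605 ± 571 in CD4.

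Another 4 lists of the T cell program had 0 called genes. These were the E and Id proteins (6 tested, 0 at an unadjusted limma p under 0.05), the Notch genes (6 tested, 0 at that level), the early T lineage program (7 tested, 0 at that level) and a set tied to naive and quiescent T cells (8 tested, 1 at that level), and DESeq2 also called 0 in each. Notch1, the receptor that starts the T lineage, averaged 1175 ± 524 in CD8 and 1600 ± 323 in CD4, and Notch2, the most abundant of its list, 1553 ± 270.0 in CD8 and 1575 ± 304 in CD4 (SD, n = 3 each). Tcf3, which encodes the E protein E2A, averaged 3424 ± 454 in CD8 and 3160.0 ± 586 in CD4. Dtx1, a Notch target and the most abundant of the early list, averaged 1324 ± 748 in CD8 and 1567 ± 416 in CD4. In the naive list the gene with an unadjusted p under 0.05 was Bach2, a repressor that keeps T cells quiescent, with 330.3, 679.8 and 659 reads in CD8 389, CD8 395 and CD8 387, against 735, 1169 and 1035 in CD4 385, CD4 393 and CD4 395 (-0.86 on the log2 scale, limma adjusted p = 0.644). Il7r, a survival receptor of that list, averaged 3688 ± 1643 in CD8 and 3679 ± 549 in CD4 and was not called.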

How the data were processed

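The authors deposited 1 table of signal, meaning read counts scaled by a size factor for every library. The submitters' processing notes name STAR 2.7.5c, featureCounts 2.0, DESeq2 and build GRCm39, with no roles; annotation and strand setting: not given in the sources used here. Per the labels' protocols, a stranded mRNA kit was used on 500 ng of RNA. The deposited signal gave back whole reads (100% of values lay within 0.001 reads of a whole multiple), on which edgeR 4.0.16 called 59 genes and DESeq2 1.42.0 called 319, where limma 3.58.1 (R 4.3.3) called 68. The limma fit used log2(value + 1), a mean-variance trend, two-sided p-values and Benjamini-Hochberg adjustment across 13877 genes that reached 10 in 3 libraries or more. This scale understates changes of low genes. The value of 3 reads, taken as the floor for a zero, was 2.52 to 3.49 by library and covers counting error only. No pair of libraries agreed within sampling noise (lowest chi-square per degree of freedom 25.4). Scripts were tested on simulated reads. Of 2-fold changes limma recovered 25%, edgeR 22% and DESeq2 47%, and of 4-fold changes 85%, 85% and 96%. False calls numbered 6 for limma, 6 for edgeR and 37 for DESeq2 among 13623 genes. A gene that was not called may therefore still differ between the groups. The members, lists and tests were chosen with earlier results of these data known. Named are the 10 members, their 3 nearest profiles, and from each list the called or the most abundant genes; Foxp3, Itgb3, Cbfb, Ikzf2, Ikzf4, Runx3 and Bach2 were named after their values were seen. Alternatives were other pseudocounts, filters, scalings, covariates and tools, and leaving out libraries. A few genes that these rules would name are not reported here.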

Additional observations from a re-analysis of the deposited data

How the results depend on the processing

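No paired analysis was possible because the groups share only 1 library number, 395. The number of genes called, 68 (39 higher and 29 lower in CD8), was 104 with a pseudocount of 8, 42 with a filter at 50, 363 with library weights, 103 with values rescaled to the T cell receptor genes (81 higher and 22 lower in CD8), 319 by DESeq2, 114 with the proliferation covariate, 159 with the macrophage covariate and 120 with the T cell receptor covariate, 49 without CD4 385 and CD8 389, and ran from 7 to 46 when 1 library was left out (7 without CD8 395, 9 without CD8 387, 19 without CD4 393, and 40 without either CD8 389 or CD4 385). The number of factors called, 0, was 1 with library weights and 1 by DESeq2, Runx1 in both, and 0 in every fit that left out 1 library. Rescaling to the T cell receptor genes moved the median over all genes to 0.57 on the log2 scale, beside 0.04 in limma as reported, and gave Lef1 0.042, Myb 0.42, Runx1 0.0049 and Ikzf1 0.46, all under that median. Lef1 was also above 0 with the proliferation covariate (0.17) and with the T cell receptor covariate (0.14), and over the fits that left out 1 library it ran from -0.82 to 0.078, the highest without CD8 389. The other 6 factors kept an estimate below 0 in all 20 alternatives. Cd4 lost its call without CD8 395. Leaving out CD4 385 and CD8 389 together and the T cell receptor covariate were chosen after seeing the data. The cause of these differences was not tested. The lowest read count of any factor was 71 (Gata3 in CD8 389).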
